A study of Mus musculus with 72 samples.

Results

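The genes described here are Myc, a set of factors that build ribosomes, and Odc1, followed in mouse acute promyelocytic leukaemia (APL) treated with retinoic acid (RA). They are a written list of 38 symbols, matched to probe sets that carry 1 gene symbol and represented by the brightest probe set of each symbol. In this way 37 of the 38 were measured, among 19938 genes in all. The remaining one, Ppan, has only a probe set that carries 2 symbols and was left out. By role, the 37 are Myc, 2 subunits of RNA polymerase I, 4 nucleolar factors, 5 proteins of small nucleolar RNA particles (snoRNPs), 1 subunit of RNase P and RNase MRP, 10 factors of small ribosomal subunit assembly, 13 of large subunit assembly, and Odc1.

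The study hybridised bone marrow RNA of leukaemic mice to 72 arrays of the type Affymetrix Mouse Gene 1.0 ST. In the transgenic model, on a wild type background, the fusion protein was PML/RARA (8 RA and 4 untreated arrays at 6 h, and the same at 12 h) or PLZF/RARA (4 RA and 2 untreated arrays at each time). In the viral transduction model the fusion was always PML/RARA, and the background was Pml null or Pml wild type (for each, 8 RA and 4 untreated arrays at 6 h, and 4 RA and 2 untreated arrays at 12 h). The labels number 4 batches, 2 in each model, and give no RA dose, no promoter of the transgene and no host of the transduced cells. Nothing in them ties an array to an animal, so each error below is the spread between arrays, the p-values are too small if arrays share an animal, and the number of arrays limits the precision. Of 9 measured promyelocyte markers, the primary granule genes Mpo, Elane and Ctsg were the brightest, with mean signals above those of at least 99.7% of genes in both models. Nkg7, Prtn3 and Cd34 stood above at least 96.3%. The other markers were lower in at least 1 model. Kit stood above 85.6% of genes in transgenic leukaemia and 77.9% in viral leukaemia, and Cebpa above 88.9% and 87.8%. Ms4a3 stood above 99.1% and 80.4%, with viral signals spread from 5.76 to 12.63. Since the samples are whole marrow, fewer cells of a type and less RNA per cell cannot be told apart.

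Myc is a transcription factor that, with its partner Max, binds the E-box sequence CACGTG and is known to drive growth, in part through the genes of ribosome production. Ribosomes are begun in the nucleolus, where RNA polymerase I makes a long precursor RNA that is modified by snoRNPs, cut, and packed stepwise into a small and a large subunit by assembly factors that leave before the ribosome is finished. RA acts on the RARA part of the fusion and makes PML/RARA leukaemia cells mature, while leukaemia with PLZF/RARA is known for a poor response.

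All signals are log2 values, and changes are log2 differences, RA minus untreated at the same time, with their standard error (SE). A gene was called when the p of the limma test, adjusted by Benjamini and Hochberg's method over all 19938 genes, was below 0.05, and "rose" and "fell" are used only of called genes. Counts from alternative fits come without the share of all genes called, unless it stands beside them. Such counts show only how far a count moves.

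Some transgenic PML/RARA arrays labelled RA stood apart in Cyp26a1, the enzyme that breaks down RA, a gene chosen after its values were seen. At 6 h RA replicates 3 and 4 had 6.48 and 6.12, against 8.86 to 9.44 on the other 6 RA arrays and 4.84 to 5.29 on the untreated arrays. At 12 h RA replicates 1 and 2 had 7.59 and 7.54, against 9.44 to 10.57 on the other 6 and 5.32 to 5.73 on the untreated arrays. All 4 lay above the untreated arrays. Fcgr4, an IgG receptor, stood at 9.30 and 9.39 on the 6 h pair. The other 6 RA arrays had 10.06 to 10.42 and the untreated arrays 6.43 to 7.76. On the 12 h pair Fcgr4 stood at 9.89 and 9.92, against 10.58 to 11.02 on the other 6. The untreated arrays of 12 h had 6.45 to 6.83. Kit, a receptor of progenitor cells, stood at 9.32 and 9.34 on the 6 h pair. The other 6 had 8.42 to 9.32 and the untreated arrays 9.82 to 10.58. At 12 h Kit stood at 9.36 and 9.33, against 8.70 to 9.50 on the other 6. The untreated arrays of 12 h had 10.29 to 10.65. Both pairs were thus below the other RA arrays in Fcgr4 too, and in Kit at the edge of their range or within it. These 2 genes were also chosen after their values were seen. On the pair of 6 h Myc was at 11.81 and 11.78 and Rpp25 at 7.18 and 6.90, below every untreated array of 6 h. The mean of the 37 genes was 9.41 and 9.42 on the pair of 12 h, next to the untreated arrays (9.56 to 9.72) and above the other 6 (8.91 to 9.22), with Myc at 12.04 and 12.05 and Rpp25 at 8.08 and 7.51. A fit without these 4 arrays was added after the data were seen. The pair of 12 h lay nearest the untreated arrays in that mean, so leaving it out makes the 12 h effect larger by construction.

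The first comparison was RA against no treatment in transgenic PML/RARA leukaemia. Of the 37 genes, 29 fell and 0 rose at 6 h, where 8.54% of all genes were called lower and 5.81% higher. At 12 h 33 fell and 0 rose, with 11.7% of all genes called lower and 9.88% higher. The median change of the 37 was -0.48 at both times, against 0.02 at 6 h and -0.01 at 12 h over all genes. Every RA array lay below every untreated array for 29 of the 37 genes at 6 h (7.75% of all genes) and for 23 at 12 h (6.86% of all genes). The same 29 genes that fell at 6 h also fell at 12 h. Without the 4 arrays that stood apart, the counts were again 29 at 6 h (10.2% of all genes called lower and 6.41% higher) and 33 at 12 h (13% lower and 9.82% higher), with medians of -0.50 and -0.58.

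**Figure D1:**
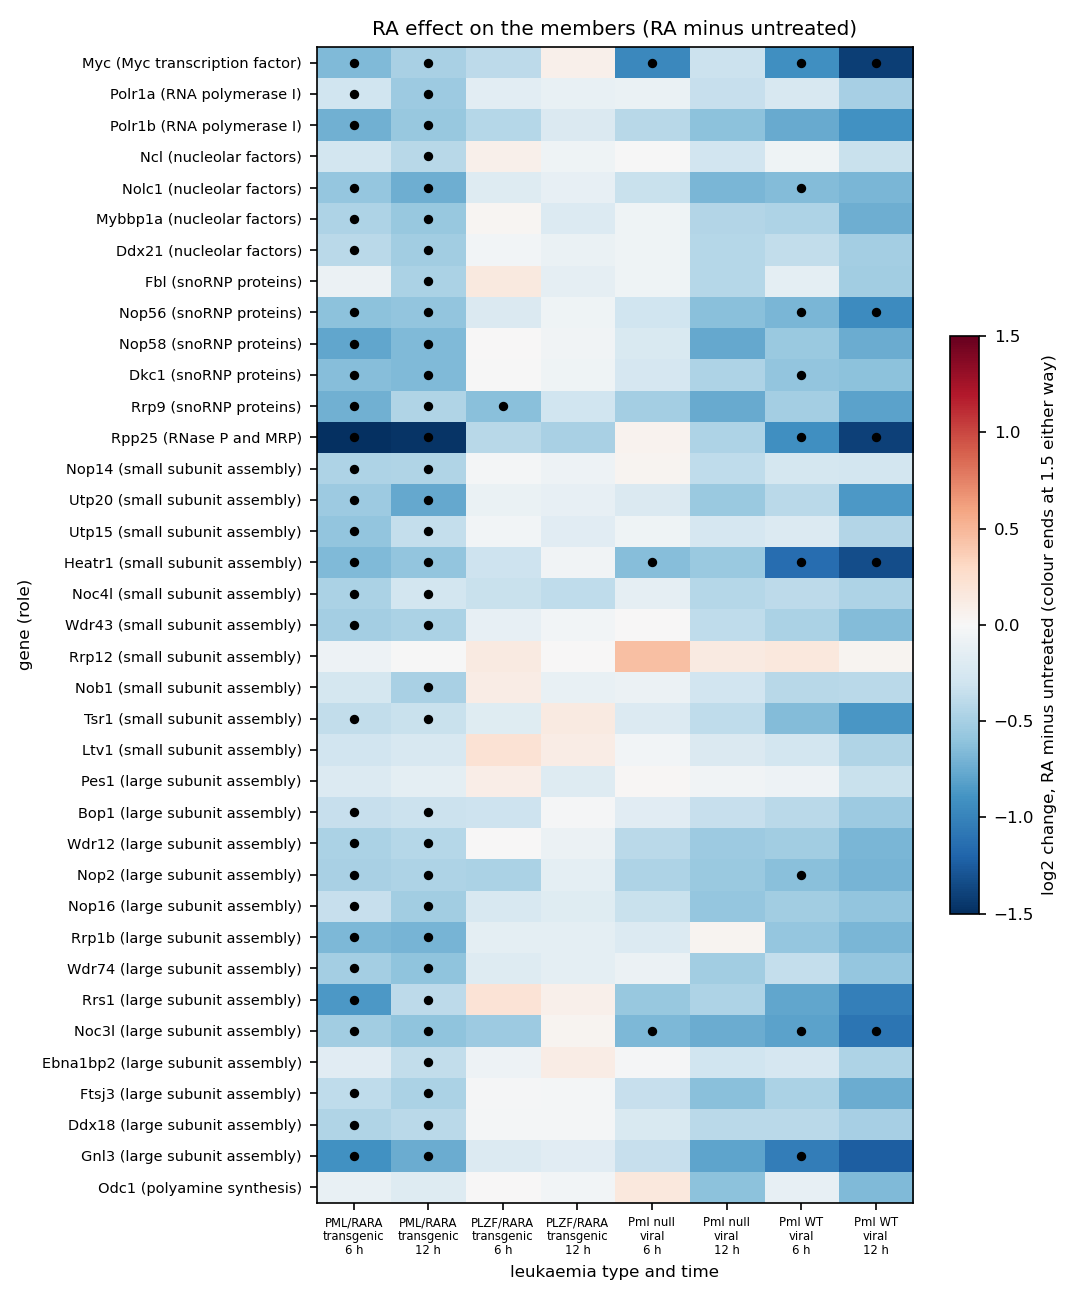
Change with RA (colour, log2, RA minus untreated) of the 37 genes (down the page, with their roles) in each leukaemia type and time (across). Black dots mark genes called by limma with adjusted p below 0.05, which are 29 and 33 of 37 in transgenic PML/RARA leukaemia at 6 h and 12 h, and 1 and 0 with PLZF/RARA.

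Myc had signals between 11.44 and 11.81 (median 11.67) on the 8 RA arrays at 6 h, against 12.19, 12.20, 12.34 and 12.38 on the untreated arrays. At 12 h they lay between 11.49 and 12.05 (median 11.68) on the RA arrays, against 12.07, 12.22, 12.26 and 12.33 on the untreated arrays. All RA arrays were below all untreated arrays at both times, although the highest RA array at 12 h came close to the lowest untreated one. Myc fell by 0.66 ± 0.10 at 6 h (adjusted p = 1.14e-05) and by 0.49 ± 0.10 at 12 h (adjusted p = 2.56e-04).

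Both measured subunits of RNA polymerase I, the enzyme that transcribes the ribosomal RNA precursor, fell at both times. Polr1b, a subunit of its core, had signals between 9.44 and 9.83 (median 9.59) with RA at 6 h, against 10.08, 10.27, 10.35 and 10.43 without. The groups did not overlap at 6 h, while at 12 h the RA arrays lay between 9.29 and 10.09 (median 9.60) and the lowest untreated array was at 10.05. The changes were -0.72 ± 0.12 (adjusted p = 2.49e-05) and -0.57 ± 0.11 (adjusted p = 2.09e-04). Polr1a, the largest subunit, fell by 0.30 at 6 h and by 0.55 at 12 h.

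Of the 4 nucleolar factors, 3 fell at 6 h and all 4 at 12 h. Ncl, nucleolin, an abundant RNA-binding protein of the nucleolus, lay between 11.23 and 11.63 (median 11.37) with RA at 6 h, against 11.64, 11.66, 11.72 and 11.82 without, so that the groups all but touched. Its change of -0.27 ± 0.10 was not called at 6 h (adjusted p = 0.0728). At 12 h it lay between 10.85 and 11.41 (median 11.15) with RA, against 11.46, 11.54, 11.63 and 11.69 without, and fell by 0.42 ± 0.10 (adjusted p = 0.00132). Nolc1, a chaperone of snoRNPs, fell by 0.58 ± 0.10 at 6 h and by 0.73 ± 0.09 at 12 h (adjusted p = 2.57e-07). Mybbp1a, a nucleolar Myb-binding protein, and Ddx21, a nucleolar RNA helicase, fell by 0.46 and 0.41 at 6 h and by 0.57 and 0.52 at 12 h.

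Of the 5 snoRNP proteins, 4 fell at 6 h and 5 at 12 h. Nop56, a core protein of the box C/D particles that guide RNA methylation, lay between 10.60 and 11.00 (median 10.88) with RA at 6 h, against 11.32, 11.42, 11.50 and 11.55 without. At 12 h it lay between 10.57 and 11.15 (median 10.88) with RA, against 11.35, 11.47, 11.47 and 11.51 without. The groups were apart at both times, and the changes were -0.61 ± 0.10 (adjusted p = 3.92e-05) and -0.59 ± 0.10 (adjusted p = 2.06e-05). Its partner Nop58 fell by 0.78 ± 0.16 and 0.66 ± 0.16, and Dkc1, the pseudouridine synthase of the box H/ACA particles, by 0.64 ± 0.12 and 0.66 ± 0.11. Rrp9, a protein of the U3 particle, fell by 0.72 ± 0.12 and 0.45 ± 0.12. Fbl, the methyltransferase of the box C/D particles, had a change of -0.09 at 6 h and fell by 0.48 at 12 h. Another, dimmer probe set that carries its name was called at both times (-0.31 ± 0.09 and -0.51 ± 0.09). Its identifier lies away from that of the brightest, and whether it detects Fbl was not tested.

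Rpp25, a protein subunit of RNase P and RNase MRP, which cut transfer RNA and ribosomal RNA precursors, moved most of the 37 at both times. Its signals lay between 6.53 and 7.19 (median 6.76) on the RA arrays at 6 h, against 8.19, 8.67, 8.85 and 9.08 on the untreated arrays. At 12 h the RA arrays lay between 6.35 and 8.08 (median 6.78), against 7.68, 8.51, 8.73 and 8.84 on the untreated arrays. The groups lay far apart at 6 h, and at 12 h 1 RA array stood above the lowest untreated array. The change at 12 h was -1.47 ± 0.24 (adjusted p = 1.15e-05), and the change at 6 h corresponded to a level 3.97-fold lower with RA.

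Of the 10 factors of small subunit assembly, 7 fell at 6 h and 8 at 12 h. Heatr1, a component of the small subunit processome that also serves RNA polymerase I transcription, lay between 9.29 and 9.62 (median 9.54) with RA at 6 h, against 10.10, 10.13, 10.22 and 10.34 without. At 12 h it lay between 9.28 and 9.80 (median 9.44) with RA, against 10.00, 10.08, 10.14 and 10.14 without. All RA arrays were lower at both times, with changes of -0.66 ± 0.10 (adjusted p = 5.21e-06) and -0.59 ± 0.09 (adjusted p = 9.43e-06). Of the other processome components, Utp20 fell by 0.54 and 0.77, Utp15 by 0.59 and 0.36, Wdr43 by 0.51 and 0.47, Nop14 by 0.46 and 0.45, and Noc4l by 0.48 and 0.27. Nob1, the endonuclease that trims the small subunit RNA, was not called at 6 h (-0.26) and fell by 0.49 at 12 h.

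Rrp12, known in yeast as a factor of ribosome precursor maturation and export, did not move with the others. Its signals lay between 7.56 and 8.05 (median 7.74) with RA at 6 h, against 7.70, 7.85, 7.86 and 8.05 without, and between 7.39 and 8.05 (median 7.85) with RA at 12 h, against 7.51, 7.76, 7.84 and 7.89 without. The groups overlapped almost fully. The changes of -0.08 ± 0.12 (95% interval -0.32 to 0.16) and -0.01 ± 0.11 (95% interval -0.25 to 0.22) were not called, and their intervals left out a fall of the median size of the 37.

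Of the 13 factors of large subunit assembly, 11 fell at 6 h and 12 at 12 h. Gnl3, nucleostemin, a nucleolar GTPase, lay between 8.80 and 9.10 (median 8.90) with RA at 6 h, against 9.69, 9.79, 9.83 and 9.99 without. At 12 h it lay between 8.41 and 9.31 (median 8.79) with RA, against 9.50, 9.50, 9.60 and 9.69 without. It was lower on all RA arrays and fell by 0.91 ± 0.14 (adjusted p = 6.50e-06) and by 0.74 ± 0.13 (adjusted p = 5.49e-05). Rrs1, which takes part in joining the 5S RNA particle to the precursor, fell by 0.86 ± 0.14 and 0.39 ± 0.13, and Rrp1b, a nucleolar protein, by 0.67 and 0.70.

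Bop1, Pes1 and Wdr12 form the PeBoW complex of large subunit maturation. Bop1 lay between 9.22 and 9.38 (median 9.32) with RA at 6 h, against 9.46, 9.64, 9.69 and 9.76 without, and between 9.06 and 9.62 (median 9.41) with RA at 12 h, against 9.51, 9.62, 9.76 and 9.77 without. The groups were apart at 6 h and overlapped at 12 h. Bop1 fell by 0.35 ± 0.09 (adjusted p = 0.00555) and by 0.32 ± 0.09 (adjusted p = 0.00633), and Wdr12 by 0.48 and 0.43, whereas Pes1 was called at neither time (-0.15 at 12 h). The dimmer probe set of Wdr12 was called at 6 h (-0.68 ± 0.11) and not at 12 h (-0.25 ± 0.11), and that of Ddx18, an RNA helicase, likewise (-0.34 ± 0.10 and -0.21 ± 0.09). The identifiers of the brightest probe sets of Wdr12, Ddx18 and Odc1 lie away from those of the same genes' dimmer ones, as is the case for Fbl. Whether each probe set detects its gene or a related sequence elsewhere was not tested. The values of these genes are therefore those of the probe sets that carry their names.

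Odc1, which makes the first step of polyamine synthesis and is a textbook Myc target, was called at neither time. Its signals lay between 9.09 and 9.74 (median 9.30) with RA at 6 h, against 9.37, 9.46, 9.47 and 9.57 without, and between 8.29 and 9.37 (median 9.03) with RA at 12 h, against 9.01, 9.09, 9.14 and 9.35 without. RA and untreated arrays were mixed. The changes were -0.11 ± 0.16 (95% interval -0.43 to 0.21) and -0.19 ± 0.15 (95% interval -0.50 to 0.11), and its other probe set gave -0.03 ± 0.16 and -0.18 ± 0.16.

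**Figure D2:**
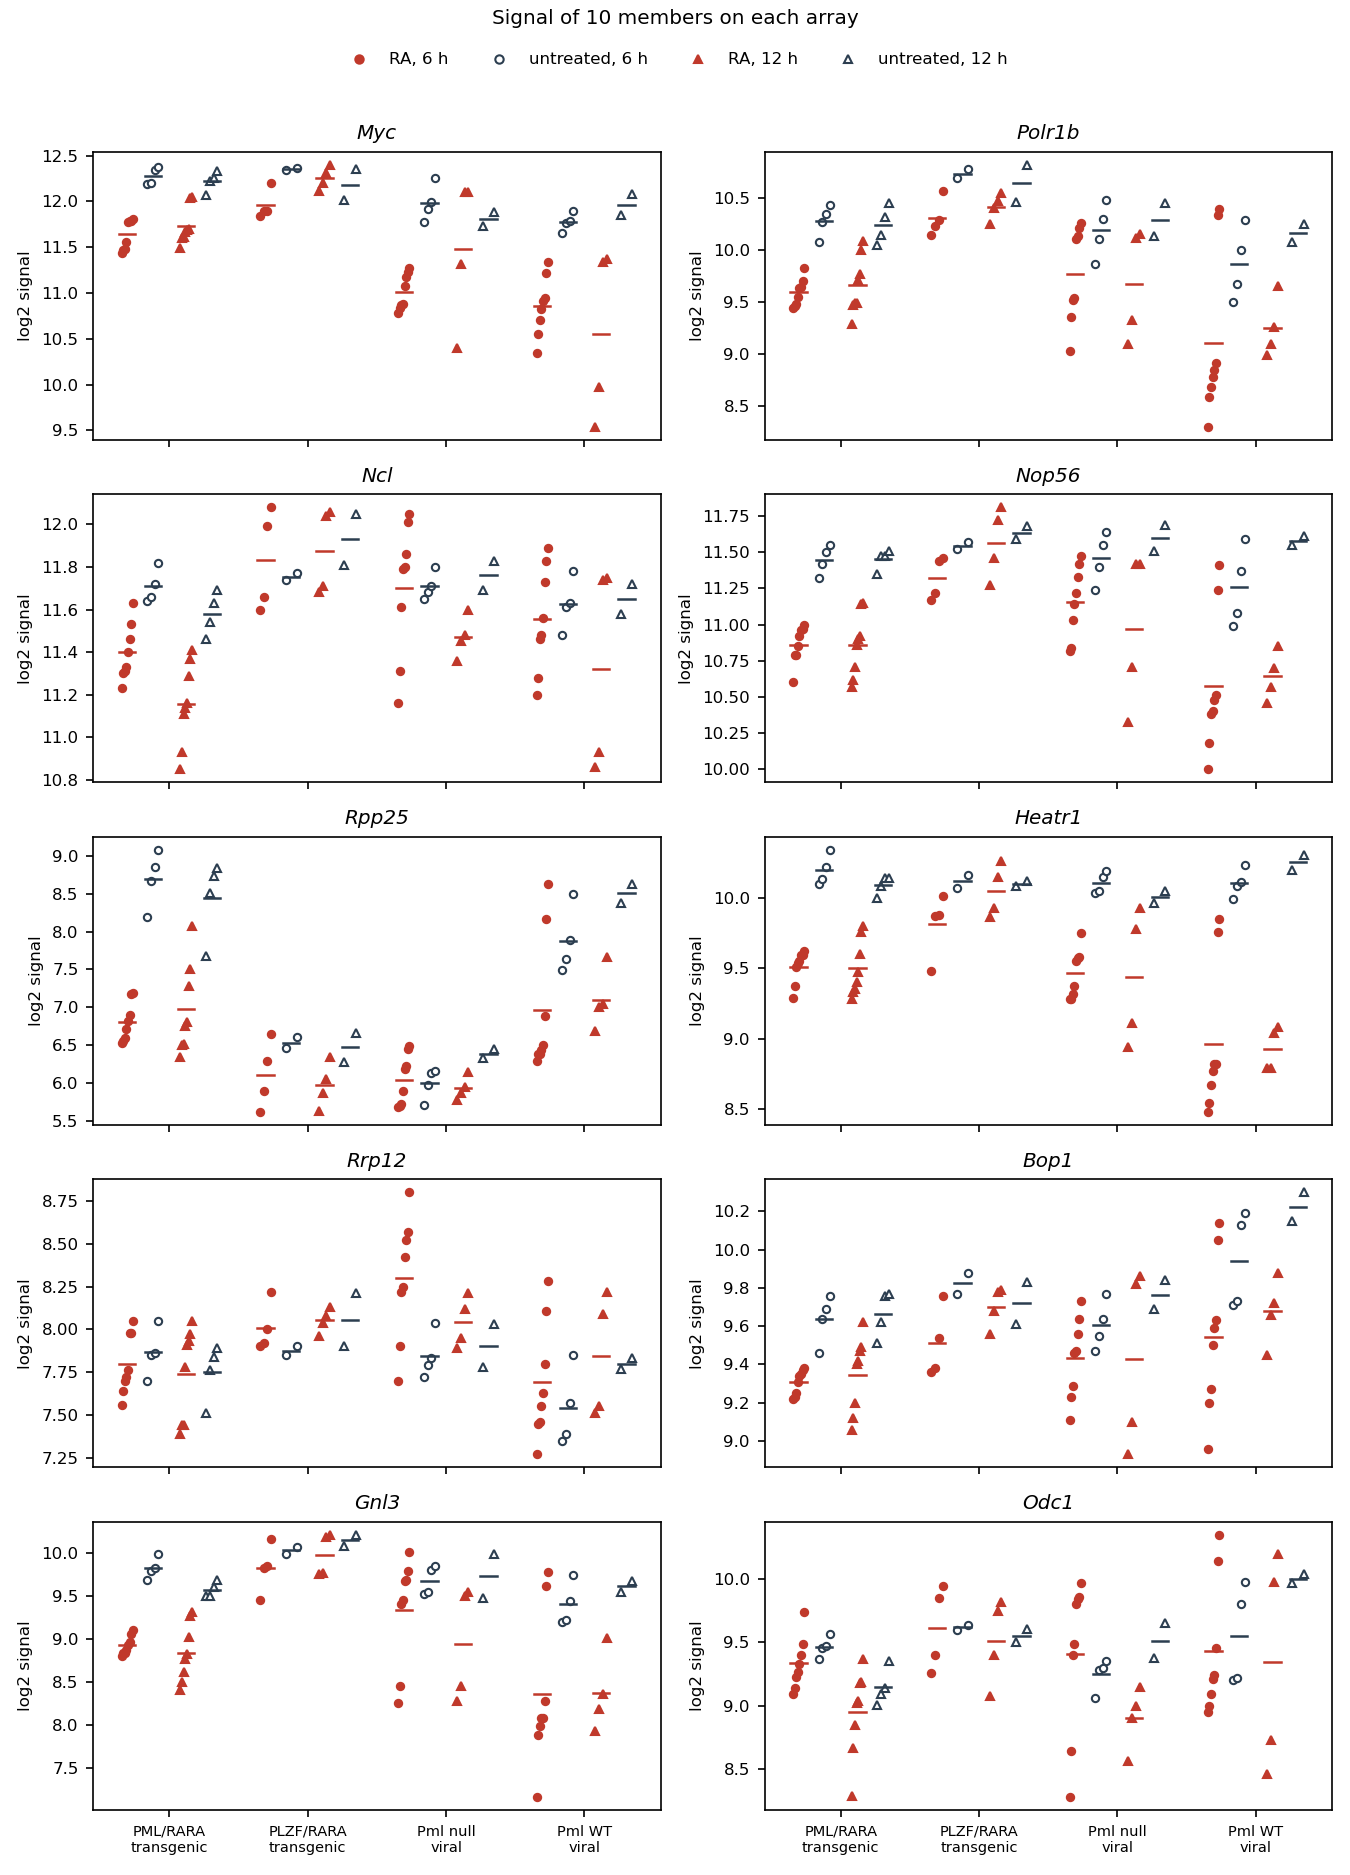
Log2 signal of 10 of the 37 genes on each array, by leukaemia type (across), with RA filled and untreated open, circles at 6 h and triangles at 12 h, and a line at each group mean. In transgenic PML/RARA leukaemia at 6 h the RA arrays of Myc, Polr1b, Nop56, Rpp25, Heatr1 and Gnl3 all lie below the untreated ones, while those of Rrp12 and Odc1 do not.

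The arrays of the 6 h comparison came from 2 batches. Within batch 1 (6 RA and 2 untreated arrays) 25 of the 37 genes fell, and within batch 2 (2 RA and 2 untreated arrays) 23 fell, without a share of all genes to set beside them. Myc changed by -0.50 within batch 1 and -0.89 within batch 2, Rpp25 by -2.08 and -1.86, and Heatr1 by -0.63 and -0.71. Markers of red cell precursors moved with this comparison in the other direction. Of 6 measured erythroid markers, 1 rose at 6 h (Klf1, an erythroid transcription factor, by 0.77 ± 0.24) and 4 rose at 12 h, with medians of 0.78 and 0.74. Their mean level was 8.79 to 10.68 on the RA arrays and 8.02 to 9.75 on the untreated arrays at 6 h, and 8.56 to 10.40 on the RA arrays and 8.35 to 9.30 on the untreated arrays at 12 h. The 9 promyelocyte markers had a mean level of 11.70 to 12.02 on the RA arrays and 11.70 to 12.03 on the untreated arrays at 6 h. At 12 h it was 11.77 to 11.99 on the RA arrays and 11.84 to 12.01 on the untreated arrays. This mean does not show single markers. Kit, which is among the 9, was lower on every RA array at 6 h (8.42 to 9.34, against 9.82 to 10.58). It was so too at 12 h (8.70 to 9.50, against 10.29 to 10.65). Like the erythroid one, other marker lists moved at 12 h. Of 10 mature neutrophil markers 3 rose and 1 fell (median 0.33), of 8 stromal and endothelial markers 3 rose and 1 fell (0.32), of 9 for monocytes and macrophages 2 rose and 1 fell (0.30), of 6 megakaryocyte markers 1 rose (0.43), and of 9 B cell markers 2 rose and 1 fell (0.52). At 6 h 0 genes of the neutrophil, B cell and megakaryocyte lists were called, with B cell markers above 0 in 9 of 9 (median 0.49), and 1 gene fell in each of the T and NK cell, monocyte and stromal lists. The part of all these markers in the changes of the 37 genes was not tested.

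The effect of RA at 12 h minus that at 6 h was tested directly, and limma called 0 of the 37 genes in transgenic PML/RARA leukaemia, with 1 higher and 1 lower at an unadjusted p below 0.05. Of all genes, 0.16% were called higher and 0.0702% lower in this comparison. The median difference of the 37 was 0.03, and the outermost values were those of Rpp25 (0.52 ± 0.34) and Fbl (-0.40 ± 0.13, adjusted p = 0.267). Without the 4 arrays that stood apart 0 were called as well (0.381% of all genes higher and 0.15% lower). In the other leukaemia types this comparison also called 0 of the 37. At an unadjusted p below 0.05 limma gave 2 higher and 0 lower with PLZF/RARA, and 0 in either direction in both viral backgrounds. The shares of all genes called higher and lower were 0.0201% and 0.00502% with PLZF/RARA, 0.0301% and 0.00502% in Pml null, and 0% for both in Pml wild type.

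Other genes of the same pathway, from lists that do not hold the 37, were counted in transgenic PML/RARA leukaemia. Of 41 further large subunit factors 24 fell at 6 h and 28 at 12 h, and of 38 further small subunit factors 19 and 23. They included Mdn1, the large ATPase that removes assembly factors (-0.66 ± 0.11 at 6 h and -0.84 ± 0.11 at 12 h), and Pwp2, of the small subunit processome (-0.57 ± 0.10 and -0.69 ± 0.10). Of 14 further snoRNP and RNA modification genes 8 and 11 fell, such as Nat10, an RNA acetyltransferase (-0.76 ± 0.13 and -0.71 ± 0.12). Of 10 further subunits of RNase P and MRP 5 and 3 fell, among them Rpp40 (-0.98 ± 0.16 and -0.61 ± 0.15). Of 13 further genes of RNA polymerase I transcription 4 and 5 fell, among them Ubtf, which organises the ribosomal RNA genes for transcription (-0.36 ± 0.08 and -0.40 ± 0.08). None of these lists had a gene that rose at either time.

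The proteins of the finished ribosome gave other counts. Of 47 measured cytosolic ribosomal protein genes 1 fell and 0 rose at 6 h, and 1 fell and 1 rose at 12 h, with medians of -0.03 and -0.05. Rpl12 fell by 0.55 ± 0.13 at 6 h, Rpl22 fell by 0.26 ± 0.08 at 12 h, and Rpl9 rose by 0.22 ± 0.06 at 12 h. A further 19 of the 66 listed ribosomal protein genes were not measured by a probe set of their own.

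**Figure D3:**
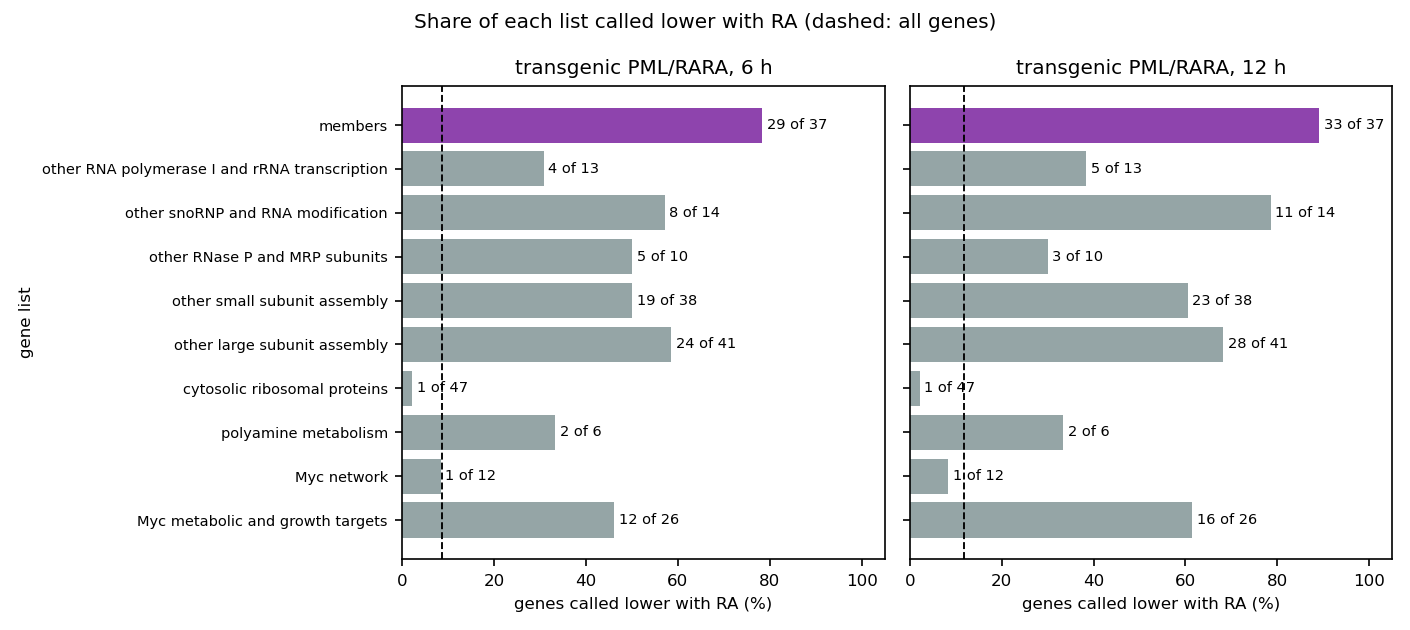
Percent of the measured genes of each list called lower with RA in transgenic PML/RARA leukaemia at 6 h (left) and 12 h (right), with the counts beside the bars and the share of all genes as a dashed line. The 37 members and the lists of assembly and snoRNP factors lie above the dashed line, and the ribosomal proteins, with 1 of 47 at each time, below it.

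Of 26 measured growth and metabolism genes known as Myc targets, 12 fell and 1 rose at 6 h, and 16 fell and 0 rose at 12 h. Purine and pyrimidine synthesis was represented by Gart (-0.77 ± 0.09 at 6 h and -0.83 ± 0.09 at 12 h), Ppat (-0.65 and -0.75) and Umps (-0.54 and -0.68). Of 6 measured genes of polyamine metabolism 3 rose and 2 fell at 6 h, and 4 rose and 2 fell at 12 h. Oaz2, an antizyme that lowers the activity of the Odc1 enzyme, rose by 1.07 ± 0.15 and 1.17 ± 0.14, and Sat1, which acetylates polyamines for breakdown, rose by 0.43 ± 0.10 and 0.79 ± 0.10. Mtap, which salvages a by-product of polyamine synthesis, fell by 0.80 ± 0.17 and 0.61 ± 0.16.

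Of 12 genes of the Myc and Max network other than Myc, 2 rose and 1 fell at 6 h, and 4 rose and 1 fell at 12 h. Mxd1, which pairs with Max and opposes Myc at E-boxes, rose by 0.92 ± 0.14 (adjusted p = 7.18e-06) and 1.15 ± 0.13 (adjusted p = 3.51e-08). Mlxipl, a glucose-responsive factor, rose by 0.54 ± 0.10 and 0.34 ± 0.10, and Mga, a large Max partner, fell by 0.31 ± 0.08 and 0.26 ± 0.08. Max itself was not called (-0.14 ± 0.09 and 0.15 ± 0.09).

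The E-box that Myc and Max are known to bind, CACGTG (palindromic, so the same on both strands), was looked for in promoter windows from RefSeq on GRCm38.p6. Each window spans 250 bases before and 50 bases after the start of a gene. Of the 32 genes among the 37 that matched a window, 7 (21.9%) held the sequence. Among all genes with a window it was 2187 of 27025 (8.1%), and among protein-coding genes with a window 1559 of 17492 (8.9%). The 7 were Utp20, Mybbp1a, Nop2, Wdr43, Tsr1, Ltv1 and Pes1. The match is a description of letters, and no binding was measured. The windows of 4 of them that fell at both times are shown 5′ to 3′ on the strand of the gene, with the E-box in capitals, because they let a reader see where it lies relative to the start. Utp20 (chr10:88826765-88827064, minus strand), Mybbp1a (chr11:72441077-72441376, plus strand) and Wdr43 (chr17:71615965-71616264, plus strand) have it after the start, beginning at bases 288, 291 and 268 of the window, and Nop2, an RNA methyltransferase of the large subunit (chr6:125131633-125131932, plus strand), before it, at base 191.
Utp20: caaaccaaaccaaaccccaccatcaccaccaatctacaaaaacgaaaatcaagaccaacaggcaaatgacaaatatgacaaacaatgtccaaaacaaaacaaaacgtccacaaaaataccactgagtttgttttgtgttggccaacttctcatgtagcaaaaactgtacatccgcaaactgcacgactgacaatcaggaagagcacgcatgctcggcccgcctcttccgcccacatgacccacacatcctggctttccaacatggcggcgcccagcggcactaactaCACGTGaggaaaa
Mybbp1a: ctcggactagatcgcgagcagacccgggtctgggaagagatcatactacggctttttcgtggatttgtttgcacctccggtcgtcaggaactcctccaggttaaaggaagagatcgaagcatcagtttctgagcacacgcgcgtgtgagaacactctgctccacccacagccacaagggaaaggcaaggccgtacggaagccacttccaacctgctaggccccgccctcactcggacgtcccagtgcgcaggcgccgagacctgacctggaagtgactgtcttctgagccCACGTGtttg
Nop2: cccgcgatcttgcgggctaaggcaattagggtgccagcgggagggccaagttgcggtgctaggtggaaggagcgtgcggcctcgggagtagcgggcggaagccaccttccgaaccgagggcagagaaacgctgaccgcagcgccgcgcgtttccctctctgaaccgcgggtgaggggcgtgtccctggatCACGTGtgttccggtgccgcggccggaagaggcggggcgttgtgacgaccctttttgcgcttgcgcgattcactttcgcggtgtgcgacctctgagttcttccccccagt
Wdr43: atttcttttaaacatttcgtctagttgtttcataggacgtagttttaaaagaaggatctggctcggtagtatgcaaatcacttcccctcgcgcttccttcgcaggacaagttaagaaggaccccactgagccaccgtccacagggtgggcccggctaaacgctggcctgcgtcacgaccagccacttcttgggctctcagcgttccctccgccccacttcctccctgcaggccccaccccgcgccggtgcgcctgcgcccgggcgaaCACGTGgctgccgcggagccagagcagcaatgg

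Utp20 and Mybbp1a belonged to the genes whose change with RA was called at both times, as described above, and so did Nop2 (-0.49 and -0.46) and Wdr43. Of the other 3 genes with the E-box, Tsr1, a late factor of the small subunit, fell at both times (-0.37 and -0.33), while Ltv1, also a late small subunit factor, and Pes1 were called at neither.

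The next comparison was RA against no treatment in transgenic PLZF/RARA leukaemia, with 4 RA and 2 untreated arrays at each time. At 6 h 1 of the 37 genes fell and 0 rose, with 0.747% of all genes called lower and 1.45% higher, and the median change was -0.10 (0.06 over all genes). The gene was Rrp9, which fell by 0.63 ± 0.16 (adjusted p = 0.0331). The call was lost without either untreated array or without RA replicate 1 or 3 (0 genes each), and 4 genes were called without RA replicate 2. Against untreated arrays of both times pooled 3 genes were called lower, and in a fit of only the groups compared 0. At 12 h limma called 0 of the 37 genes, with 1 lower at an unadjusted p below 0.05. There 1.57% of all genes were called lower and 2.46% higher, and the median was -0.09. Pooled untreated arrays gave 1 lower gene in place of 0. For none of these alternatives is the share of all genes called given.

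Myc had signals of 11.84, 11.89, 11.90 and 12.20 with RA at 6 h, against 12.34 and 12.36 without, and of 12.11, 12.20, 12.31 and 12.40 with RA at 12 h, against 12.01 and 12.35 without. The RA arrays were lower at 6 h, where the change of -0.39 ± 0.14 was not called (adjusted p = 0.15), and straddled the untreated arrays at 12 h (0.08). Gnl3 had signals of 9.45, 9.83, 9.85 and 10.16 with RA at 6 h, against 9.99 and 10.07 without, and of 9.75, 9.77, 10.18 and 10.21 with RA at 12 h, against 10.08 and 10.21 without. The groups overlapped at both times, with changes of -0.21 ± 0.19 and -0.17 ± 0.19.

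Heatr1 had signals of 9.48, 9.87, 9.88 and 10.01 with RA at 6 h, against 10.07 and 10.16 without, and of 9.86, 9.93, 10.15 and 10.26 with RA at 12 h, against 10.08 and 10.12 without. It was lower on every RA array at 6 h only, and the change of -0.31 ± 0.13 was not called (adjusted p = 0.278). Rpp25 had signals of 5.62, 5.89, 6.29 and 6.65 with RA at 6 h, against 6.46 and 6.61 without, and of 5.63, 5.87, 6.06 and 6.35 with RA at 12 h, against 6.28 and 6.66 without. Most RA arrays were lower, and the changes of -0.42 ± 0.33 and -0.49 ± 0.33 were not called. For 11 of the 37 genes every RA array was below both untreated arrays at 6 h (5.64% of all genes), and for 1 at 12 h (15.6% of all genes).

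Whether RA acted differently with the 2 fusions was tested as the RA effect with PML/RARA minus that with PLZF/RARA, averaged over both times. Of the 37 genes 15 had a lower RA effect with PML/RARA and 0 a higher one, where 4.07% of all genes were called lower and 3.35% higher. All 37 differences were below 0, with a median of -0.39. The widest was that of Rpp25 (-1.27, 95% interval -1.86 to -0.68, adjusted p = 0.00451), followed by Rrs1 (-0.77, 95% interval -1.10 to -0.43, adjusted p = 0.00283), Nop58 (-0.70 ± 0.19), Gnl3 (-0.64, 95% interval -0.97 to -0.31) and Dkc1 (-0.62 ± 0.14). Myc differed by -0.42 ± 0.12 (adjusted p = 0.0284). Untreated Rpp25 was already at 6.28 to 6.66 with PLZF/RARA, against 7.68 to 9.08 with PML/RARA. The array medians over all probe sets ran from 6.56 to 6.81. The part of this low starting level in the difference of Rpp25 was not tested.

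Some genes had differences near 0 that were not called. They were Noc4l (-0.02, 95% interval -0.26 to 0.22), Rrp12 (-0.11, 95% interval -0.40 to 0.17), Rrp9 (-0.12, 95% interval -0.41 to 0.17) and Odc1 (-0.13, 95% interval -0.51 to 0.25). The intervals of Rrp12, Rrp9 and Odc1 do not leave out a difference of the median size. The count of 15 became 8 without PLZF/RARA 6 h untreated replicate 1, 9 without replicate 2, 9 without PLZF/RARA 12 h untreated replicate 2, and 24 without PLZF/RARA 6 h RA replicate 4. It became 26 without the 4 PML/RARA arrays that stood apart (6.11% of all genes called lower and 3.89% higher). The direction of all 37 differences stayed below 0 in each of these. The rise to 26 was built in part into the choice of arrays, since the 12 h pair among the 4 lay nearest the untreated level. For Mxd1 the difference was in the other direction and called (0.77 ± 0.16).

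**Figure D4:**
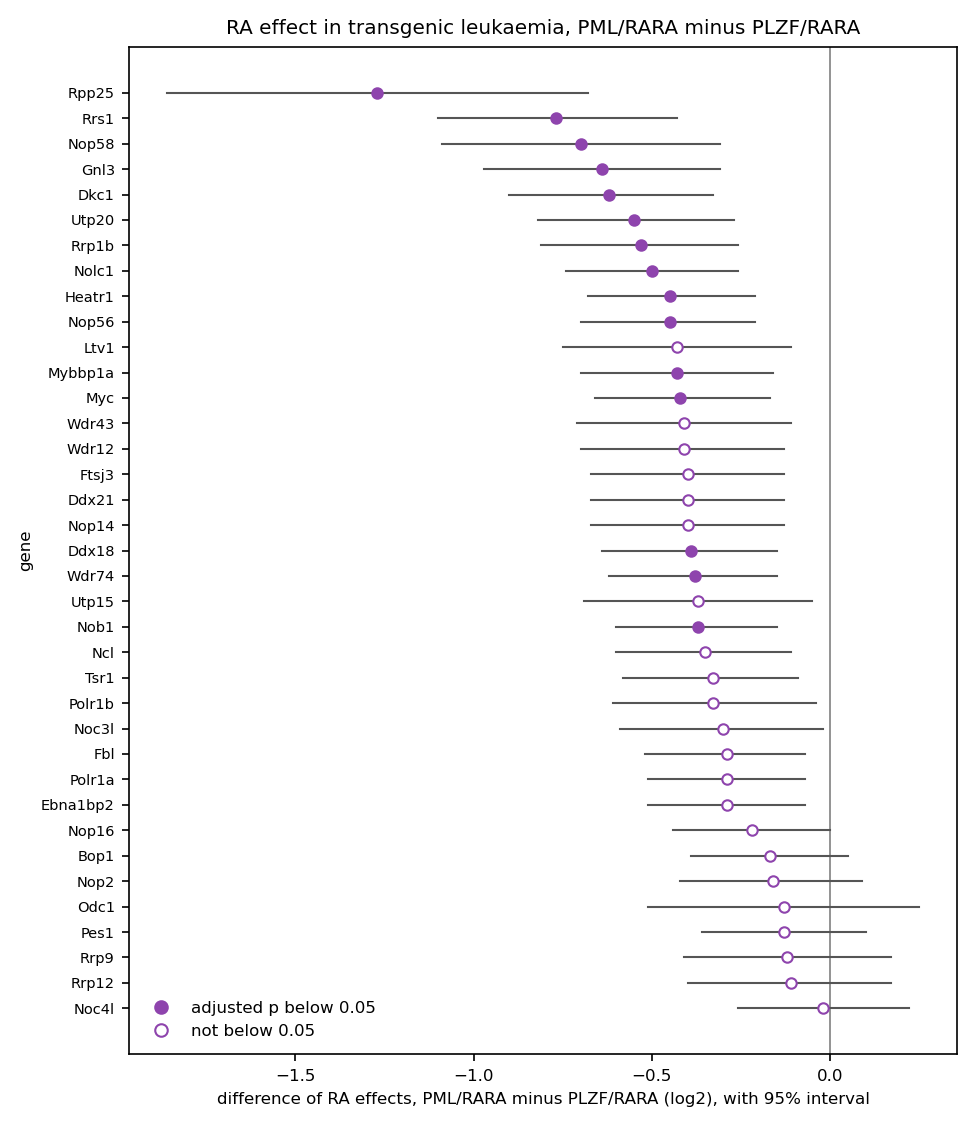
RA effect with PML/RARA minus RA effect with PLZF/RARA in transgenic leukaemia (log2, averaged over 6 h and 12 h) for each of the 37 genes, with 95% intervals. Filled points are the 15 genes called by limma with adjusted p below 0.05, and every point lies below 0.

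Without treatment, PML/RARA and PLZF/RARA leukaemias also differed. Of the 37 genes 2 were higher and 11 lower with PML/RARA, with 13.1% of all genes called higher and 12.2% lower, and the median difference was -0.22. The 11 lower ones included Wdr12 (-0.46), Rrp9 (-0.45), Mybbp1a (-0.41), Polr1b (-0.39), Nob1 (-0.39) and Gnl3 (-0.38), and the count of 13 became 7 without PLZF/RARA 12 h untreated replicate 2. Myc did not differ beyond its error (0.00, 95% interval -0.20 to 0.21), nor did Heatr1 (0.01, 95% interval -0.19 to 0.20). Of the 47 ribosomal protein genes 21 were lower and 0 higher, with a median of -0.18.

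Rpp25 was the exception in size. Its untreated signals in PML/RARA leukaemia, given above, lay between 7.68 and 9.08, against 6.28 to 6.66 in PLZF/RARA leukaemia. With RA, the PML/RARA arrays reached a level between 6.35 and 8.08, overlapping the untreated PLZF/RARA arrays. The untreated difference was 2.17 ± 0.24 (adjusted p = 7.61e-09), and 2.20 within batch 1. Rrs1 was also higher with PML/RARA (0.42 ± 0.14). All 6 erythroid markers were higher in untreated PML/RARA marrow (median 2.61), where their mean level ran from 8.02 to 9.75, against 6.26 to 6.70 in untreated PLZF/RARA marrow. The promyelocyte markers had a mean level of 11.70 to 12.03 in untreated PML/RARA marrow and 11.69 to 11.84 in untreated PLZF/RARA marrow. Like the erythroid list, other marker lists differed. Higher with PML/RARA were 6 of 8 T and NK cell markers (median 1.16, 1 lower), 5 of 6 megakaryocyte markers (0.80, 1 lower), 4 of 9 B cell markers (0.79), 5 of 10 mature neutrophil markers (0.42), 5 of 9 for monocytes and macrophages (0.28, 2 lower) and 4 of 8 stromal and endothelial markers (0.33). The part of these markers in the difference of Rpp25 was not tested.

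In the viral leukaemias 2 arrays stood apart. RA replicates 5 and 6 of the Pml wild type background at 6 h, both of batch 3, were unlike the other 6 RA arrays of their group in genes chosen after their values were seen. Cyp26a1 stood at 8.52 and 9.08, against 10.01 to 10.47 on the other RA arrays and 4.98 to 5.64 on the untreated arrays. Fcgr4, an IgG receptor, stood at 7.98 and 8.37, against 9.84 to 10.68 on the other RA arrays and 6.70 to 8.81 on the untreated ones. Kit, a receptor of progenitor cells, stood at 9.12 and 9.19, against 7.01 to 7.61 on the other RA arrays and 9.08 to 9.56 on the untreated ones, so the 2 arrays were near the untreated ones in Kit and Fcgr4 but not in Cyp26a1. The mean of the 37 genes was 9.66 and 9.74 on them and 8.44 to 8.88 on the other 6 RA arrays, against 9.24, 9.28, 9.56 and 9.74 on the untreated arrays. A fit with both left out was added after the data were seen. The 2 lay among the untreated arrays in that mean, so leaving them out makes the RA effect of their group larger by construction.

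**Figure D5:**
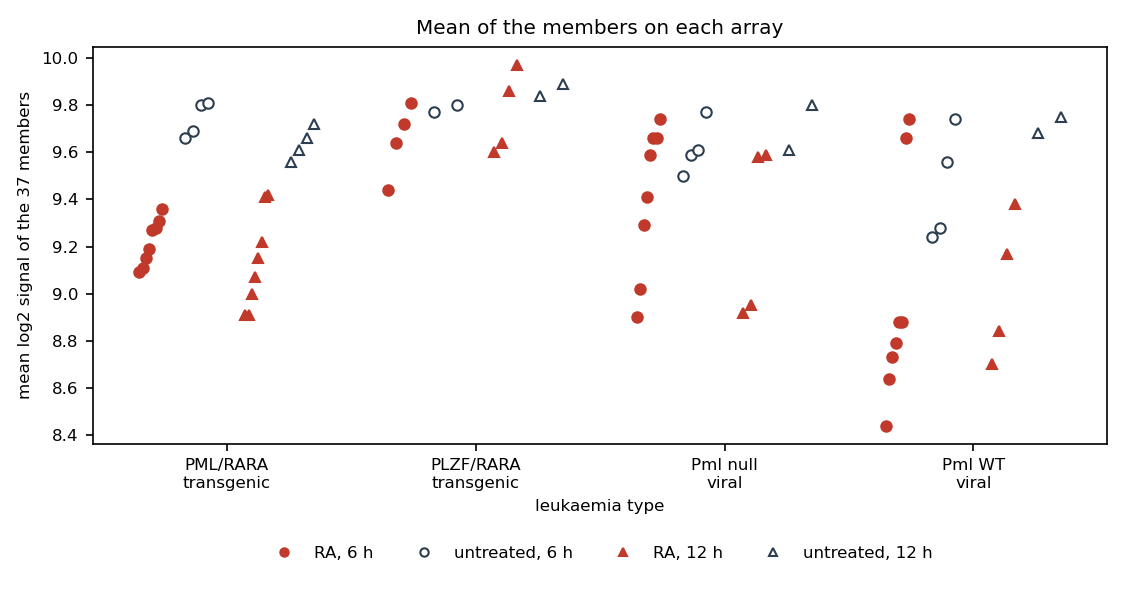
Mean log2 signal of the 37 genes on each array, by leukaemia type (across), with RA filled and untreated open, circles at 6 h and triangles at 12 h. In transgenic PML/RARA leukaemia the RA arrays lie below all untreated ones, 2 of 12 h closest to them at 9.41 and 9.42, and in the Pml wild type viral background at 6 h 2 RA arrays, at 9.66 and 9.74, stand among the untreated ones.

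In viral PML/RARA leukaemia of the Pml null background, 3 of the 37 genes fell at 6 h and 0 rose, with 6.38% of all genes called lower and 4.97% higher, so the share of the 37 (median change -0.20) was near that of all genes. The 3 were Myc, Heatr1 and Noc3l, a factor of large subunit transport. The dimmer probe set of Wdr12 was also called lower there (-0.67 ± 0.21, adjusted p = 0.0298 over all probe sets), while the brightest, which stands for the gene in the counts, was not (-0.41, adjusted p = 0.169). The count was 1 without untreated replicate 1 and 0 without untreated replicate 2, and within batches 0 genes fell in batch 3 and 3 in batch 4. At 12 h limma called 0 of the 37, with 11 lower at an unadjusted p below 0.05, a median of -0.44, and 1.83% of all genes called lower and 4.22% higher. Without RA replicate 1 there were 2 called genes at 12 h, and without RA replicate 3 there was 1. Against untreated arrays of both times pooled, 13 were lower at 12 h in place of 0, so the count rests on the choice of untreated arrays. Pooling also adds untreated arrays, and the 13 is given without the share of all genes called. Of 10 mature neutrophil markers 4 rose at 12 h in Pml null leukaemia (median 0.89), with a mean level of 9.98 to 10.65 on the RA arrays, against 9.33 and 9.71 on the untreated ones, and 2 of 8 stromal and endothelial markers fell (median -0.18). Their part in the values of the 37 genes was not tested.

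In the Pml wild type background, 9 of the 37 genes fell at 6 h and 0 rose, with 4.44% of all genes called lower and 5.44% higher, and the median change was -0.48. The 9 were Myc, Nolc1, Nop56, Dkc1, Rpp25, Heatr1, Nop2, Noc3l and Gnl3. Here too the dimmer probe set of Wdr12 was called (-0.78 ± 0.21, adjusted p = 0.0117) and the brightest was not (-0.52, adjusted p = 0.0638). With RA replicates 5 and 6 left out, 29 fell (6.79% of all genes called lower and 7.45% higher) with a median of -0.67. The choice of these 2 arrays builds in a larger effect, as said above. Single arrays moved the count as well. It was 4 without untreated replicate 1 or 4, 5 without untreated replicate 2, 5 without RA replicate 4 or 8, 18 without RA replicate 5 and 21 without RA replicate 6. Within batches 0 genes fell in batch 3, which holds the 2 arrays, and 13 in batch 4. Against untreated arrays of both times pooled the count was 21, after another quantile normalization 16, and without the dimmest 33% of genes 18. These counts, and those without single arrays or within batches, are given without the share of all genes called.

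At 12 h 5 genes fell in the Pml wild type background and 0 rose, with 3.07% of all genes called lower and 3.03% higher, and the median was -0.66. They were Myc, Nop56, Rpp25, Heatr1 and Noc3l. The count was 1 without either untreated array, 3 without RA replicate 2 and 9 without RA replicate 3. It was 22 against untreated arrays of both times pooled and 3 without the batch term, again without the share of all genes called. Every RA array lay below every untreated array for 3 of the 37 genes in Pml null (3.1% of all genes) and 2 in Pml wild type leukaemia (2.2% of all genes) at 6 h, and for 21 (13.7% of all genes) and 27 (14.2% of all genes) at 12 h.

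Myc had signals between 10.78 and 11.27 (median 10.98) with RA at 6 h in the Pml null background, against 11.78, 11.92, 11.99 and 12.25 without. In the Pml wild type background it lay between 10.35 and 11.34 (median 10.87) with RA, against 11.65, 11.76, 11.79 and 11.89 without. All RA arrays were below all untreated arrays in both, including the 2 arrays that stood apart, which had 10.95 and 11.34. Myc fell by 0.97 ± 0.26 in Pml null (adjusted p = 0.0133) and by 0.92 ± 0.26 in Pml wild type leukaemia (adjusted p = 0.0214, and a change of -1.0 with both arrays left out).

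At 12 h Myc had signals of 10.40, 11.32, 12.10 and 12.10 with RA in Pml null leukaemia, against 11.73 and 11.88 without, and of 9.54, 9.97, 11.34 and 11.37 with RA in Pml wild type leukaemia, against 11.85 and 12.08 without. In the Pml null group the RA arrays lay on both sides of the untreated ones, and the change of -0.32 ± 0.37 was not called (adjusted p = 0.81). In the Pml wild type group all RA arrays were lower, in 2 pairs far from each other, and Myc fell by 1.41 ± 0.37 (adjusted p = 0.0176).

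Heatr1 lay between 9.28 and 9.75 (median 9.46) with RA at 6 h in Pml null leukaemia, against 10.03, 10.05, 10.15 and 10.19 without, and between 8.48 and 9.85 (median 8.79) with RA in Pml wild type leukaemia, against 9.99, 10.08, 10.11 and 10.23 without. It was lower on all RA arrays in both, although in Pml wild type leukaemia the 2 arrays that stood apart (9.76 and 9.85) were close to the untreated level. Heatr1 fell by 0.64 ± 0.18 (adjusted p = 0.015) in Pml null and by 1.14 ± 0.18 (adjusted p = 3.32e-05) in Pml wild type leukaemia, where leaving both arrays out gave -1.40 (adjusted p = 2.60e-09). At 12 h it had 8.94, 9.11, 9.78 and 9.93 with RA in Pml null leukaemia, against 9.96 and 10.05 without, and 8.79, 8.79, 9.04 and 9.08 with RA in Pml wild type leukaemia, against 10.20 and 10.30 without. Only the Pml wild type change was called (-1.33 ± 0.25, adjusted p = 0.00103, against -0.56 ± 0.25, adjusted p = 0.234, in Pml null).

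Rpp25 lay between 5.69 and 6.49 (median 6.03) with RA at 6 h in Pml null leukaemia, against 5.71, 5.98, 6.13 and 6.16 without, and between 6.29 and 8.63 (median 6.46) with RA in Pml wild type leukaemia, against 7.49, 7.64, 7.89 and 8.49 without. Its RA and untreated arrays were mixed in Pml null, and in Pml wild type leukaemia all RA arrays but the 2 that stood apart (8.17 and 8.63) were lower. It fell by 0.92 ± 0.28 (adjusted p = 0.0321) in Pml wild type leukaemia, with -1.36 (adjusted p = 1.53e-06) when both arrays were left out, and changed by 0.05 ± 0.28 in Pml null. At 12 h Rpp25 had 5.77, 5.87, 5.95 and 6.14 with RA in Pml null leukaemia, against 6.33 and 6.45 without, and 6.69, 7.0, 7.05 and 7.67 with RA in Pml wild type leukaemia, against 8.38 and 8.63 without. All RA arrays were lower in both, and the fall of 1.40 ± 0.40 in Pml wild type leukaemia was called (adjusted p = 0.028).

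Gnl3 lay between 8.25 and 10.01 (median 9.56) with RA at 6 h in Pml null leukaemia, against 9.52, 9.54, 9.80 and 9.85 without, and between 7.16 and 9.78 (median 8.08) with RA in Pml wild type leukaemia, against 9.20, 9.22, 9.44 and 9.74 without. The groups overlapped in both, in Pml wild type leukaemia through the 2 arrays that stood apart (9.78 and 9.61). It fell by 1.04 ± 0.34 in Pml wild type leukaemia (adjusted p = 0.048, and a change of -1.46 with both arrays left out). Polr1b missed the threshold there (-0.76 ± 0.25, adjusted p = 0.0508) and fell by 1.11 with both left out. Odc1 had 8.46, 8.73, 9.98 and 10.20 with RA at 12 h in Pml wild type leukaemia, against 9.97 and 10.04 without, so 2 RA arrays were far below the untreated ones and 2 were level with them, and Rrp12 had a change of 0.45 ± 0.16 at 6 h in Pml null leukaemia that was not called (adjusted p = 0.0746).

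In the viral leukaemias Mxd1 rose in both backgrounds at both times, by 1.32 and 1.75 in Pml null and by 1.35 and 1.31 in Pml wild type leukaemia at 6 h and 12 h. Of the 47 ribosomal protein genes 0 were called in Pml null leukaemia at either time, and 1 fell in Pml wild type leukaemia at 6 h (Rpl12, by 0.92) and 0 at 12 h. Of the 26 growth and metabolism genes 2 fell at each time in Pml null and 8 at each time in Pml wild type leukaemia, with medians at 12 h of -0.42 in both.

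Whether the Pml background changed the RA effect on these genes was tested as the effect in Pml null minus that in Pml wild type leukaemia, averaged over both times. Limma called 0 of the 37, with 3 higher and 0 lower at an unadjusted p below 0.05, while 0.752% of all genes were called higher and 0.381% lower. The differences were all above 0, with a median of 0.20. The 3 were Rpp25 (0.96 ± 0.34, 95% interval 0.25 to 1.66, adjusted p = 0.285), Heatr1 (0.63 ± 0.22, 95% interval 0.19 to 1.08, adjusted p = 0.235) and Rrp1b (0.56 ± 0.25). Untreated Rpp25 was already at 5.71 to 6.45 in Pml null, against 7.49 to 8.63 in Pml wild type leukaemia. The part of this low starting level in its difference was not tested. With the 2 arrays left out, Rpp25 (1.18, adjusted p = 0.00119) and Heatr1 (0.76, adjusted p = 0.00412) were called, with 0.983% of all genes called higher and 0.712% lower, and the median was 0.29. Leaving out the Pml wild type RA arrays nearest the untreated ones widens this difference by construction, so these 2 calls are no support of their own.

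Without treatment, 1 of the 37 genes was higher and 2 were lower in Pml null than in Pml wild type leukaemia, with 10.9% of all genes called higher and 9.92% lower. Rpp25 was lower by far (-2.00 ± 0.28, adjusted p = 1.14e-06), on every array, at 5.71 to 6.45 in Pml null leukaemia and 7.49 to 8.63 in Pml wild type leukaemia. Within batches its difference was -2.08 in batch 3 and -1.72 in batch 4. Bop1 was lower (-0.40 ± 0.14) and Polr1a higher (0.44 ± 0.14). Without Pml null 12 h untreated replicate 2 or Pml wild type 12 h untreated replicate 1, 1 gene was called. A fit of only the groups compared called 12 in place of 3, and batch 3 alone gave 1. All 10 mature neutrophil markers were lower in untreated Pml null marrow (median -2.36), with a mean level of 9.33 to 10.20, against 11.55 to 12.20 in Pml wild type marrow. Lower too were 5 of 9 monocyte and macrophage markers (median -0.71) and 3 of 8 T and NK cell markers (-0.27, 1 higher). The part of these markers in the difference of Rpp25 was not tested.

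The last comparison set the RA effect of transgenic PML/RARA leukaemia against that of viral PML/RARA leukaemia on the Pml wild type background. The models share no batch, so model and batch cannot be told apart. Heatr1 was the 1 gene of the 37 called, with a higher value, and thus a smaller fall, in the transgenic model (0.61 ± 0.16, adjusted p = 0.0132), while 2.48% of all genes were called higher and 3.01% lower. The median difference of the 37 was 0.07. The call was lost without Pml wild type 12 h untreated replicate 2, and 2 genes were called without Pml wild type 12 h RA replicate 1 or 2. With the 2 viral arrays that stood apart left out, Heatr1 was again the 1 called gene (0.74, adjusted p = 4.60e-05), with 2.48% of all genes called higher and 3.16% lower. It was so too without the 4 transgenic ones (0.55, adjusted p = 0.0309), with 2.6% of all genes called higher and 3.85% lower.

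Across the 8 RA effects, 18 of the 37 genes had a change below 0 in all 8, 14 in 7, 4 in 6 and 1, Rrp12, in 3. These signs were counted whether or not a change was called, and no such tally over all genes is given. In single effects 33.9% to 63.2% of all genes were below 0. With PLZF/RARA the medians of the 37 (-0.10 and -0.09) were smaller than their median SE of 0.15. The number called lower in all 6 effects of PML/RARA leukaemias was 0, and Myc, Heatr1 and Noc3l were called in 5 of them.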

How the data were processed

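Total RNA from mouse bone marrow was hybridised to 72 arrays. The values deposited by the authors are log2 signals of 35556 probe sets per array, made with RMA and affy per the submitters' processing notes. Not given in the sources used here are versions, background correction and genome build. The number of arrays limits precision, with a median residual SD of 0.149 (transgenic) and 0.153 (viral).

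Probe sets with 1 symbol in the platform annotation were kept, the brightest per symbol, with no filter on low signal (19938 genes). Tables were read with data.table (version 1.17.8) in R 4.3.3, and limma 3.58.1 was fitted to the 36 arrays of each model (to all 72 for the comparison of models), with 1 coefficient per group, an additive batch term and eBayes. Tests were two-sided, with Benjamini-Hochberg adjustment over all genes, for 17 comparisons. The fits were tested on simulated data.

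Members and lists were chosen with earlier results of these data known. All members may be named, and 10 are given array by array; of other lists, the Myc network genes and the 4 with the largest moderated statistic in transgenic PML/RARA at 12 h. Cyp26a1, Fcgr4 and Kit lie outside this rule. Alternatives were other normalization, probe set, filter, batch and control choices and leaving out each array. Leaving out 2 viral arrays together, and 4 transgenic ones, was chosen after seeing the data.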

Additional observations from a re-analysis of the deposited data

Results flagged for a closer look

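For 15 of the 37 genes the RA effect differed between the transgenic fusions by a direct test (PML/RARA minus PLZF/RARA, limma, averaged over both times). The differences were -1.27 for Rpp25, -0.77 for Rrs1, -0.70 for Nop58, -0.64 for Gnl3, -0.62 for Dkc1, -0.55 for Utp20, -0.53 for Rrp1b and -0.50 for Nolc1. They were -0.45 for both Nop56 and Heatr1, -0.43 for Mybbp1a, -0.42 for Myc, -0.39 for Ddx18, -0.38 for Wdr74 and -0.37 for Nob1. Each is negative, that is, the RA effect was lower with PML/RARA than with PLZF/RARA, and 6 of the 15 kept their call whichever single array was left out. Rpp25 started from a lower untreated level with PLZF/RARA, and the part of that in its difference was not tested. The arrays that stood apart came in pairs with successive replicate numbers, so leaving out 1 array leaves the other of its pair in place. Whether such pairs share an animal is not in the labels. Between the transgenic and the viral Pml wild type model, the RA effect on Heatr1 differed by 0.61, and model and batch cannot be told apart in it.

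Dixon's test was run 132 times, for the 10 genes given array by array and the mean of the 37 genes in each group of 4 to 8 arrays. In these, 0 single arrays passed it. The groups of 2 untreated arrays were too small and were not tested. The test looks for 1 array apart from all the others and cannot see 2 that stand together, such as the arrays that stood apart in pairs, so this count does not speak to them.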

How the results depend on the processing

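All values here are counts of the 37 genes called. They are given without the shares of all genes under the same alternatives, so they show only how far each count moves. Leaving out a single array leaves in place the other array of a pair that stood apart. In transgenic PML/RARA leukaemia, leaving out single arrays gave 23 to 30 genes lower at 6 h and 30 to 33 at 12 h, and no other alternative moved either count by over 1.5 times. With PLZF/RARA at 6 h, in place of 1, another quantile normalization gave 3, centring arrays on their median 2, a fit of only the groups compared 0, untreated arrays of both times pooled 3, and single arrays left out 0 to 4. Pooled untreated arrays gave 1 with PLZF/RARA at 12 h in place of 0, 13 in Pml null at 12 h in place of 0, 21 in Pml wild type at 6 h in place of 9 and 22 at 12 h in place of 5. In Pml null leukaemia the arrays of batch 3 alone gave 0 at 6 h in place of 3, and single arrays left out gave 0 to 3 at 6 h and 0 to 2 at 12 h. In Pml wild type leukaemia at 6 h another quantile normalization gave 16, leaving out the dimmest 33% of genes 18, batch 3 alone 0, RA replicates 5 and 6 both left out 29, and single arrays left out 4 to 21. At 12 h no batch term gave 3, and single arrays left out 1 to 9. Single arrays left out gave 8 to 24 for the difference between fusions in place of 15, 0 to 2 for transgenic against viral in place of 1, 7 to 13 for untreated PML/RARA against PLZF/RARA in place of 13, and 1 to 3 for untreated Pml null against Pml wild type in place of 3. For that last comparison, a fit of only its groups gave 12 and batch 3 alone 1. Leaving out the 4 transgenic PML/RARA arrays that stood apart gave 26 for the difference between fusions in place of 15. With RA replicates 5 and 6 left out, the difference in RA effect between Pml null and Pml wild type gave 2 in place of 0. For the fits without the arrays that stood apart, the choice of arrays sets the direction of the shift in part. The cause of the other shifts was not tested.

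Of 2766 values of the called genes under the alternatives, 2536 kept direction and call, 230 kept direction and lost the call, and 0 reversed. With 2 untreated arrays in 3 of the 4 leukaemia types at 12 h, and in PLZF/RARA at 6 h, precision is limited there. Genes with more than 1 probe set (Fbl, Wdr12, Ddx18, Odc1) rest on the brightest, and which sequence each of their probe sets detects was not tested. No paired analysis was possible because the labels give every array the same replicate number.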

Other observations

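In Pml wild type viral leukaemia at 12 h the 4 RA arrays formed 2 pairs, which differed in more than Myc, and the genes given here were chosen after their values were seen. Replicates 1 and 2 had Myc at 11.34 and 11.37, Odc1 at 8.73 and 8.46, and Ncl at 10.86 and 10.93. Replicates 3 and 4 had Myc at 9.97 and 9.54, Odc1 at 10.20 and 9.98, and Ncl at 11.75 and 11.74. In Pml null leukaemia at 12 h, RA replicates 1 and 3 had Myc at 12.10 and 12.10, Odc1 at 9.15 and 9.0, and Ncl at 11.60 and 11.48. Replicates 2 and 4 had Myc at 10.40 and 11.32, Odc1 at 8.90 and 8.56, and Ncl at 11.45 and 11.36. So the arrays with the higher Myc had the lower Odc1 and Ncl in Pml wild type and the higher ones in Pml null leukaemia. These are values of single arrays, with no test.

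Without treatment, Mxd1, which opposes Myc, was lower in Pml null than in Pml wild type viral leukaemia (-1.27 ± 0.14), and so was Max (-0.61), both called by limma. Of the 47 ribosomal protein genes, 16 were higher and 1 lower in untreated Pml null leukaemia, with a median of 0.12.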
